A study of Mus musculus with 6 samples.

Results

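The genes described here encode the proteins of the cytosolic ribosome in mouse embryonic stem (ES) cells that carried a vector for FLAG-tagged CTCFL or a control vector. Members were chosen by symbol: Rpl or Rps followed by a number and at most a short ending such as a, x or l, together with Rplp0, Rplp1, Rplp2 and Rpsa. The array annotation held 81 such symbols. Of these, 61 had at least 1 row that named no other gene, and they are described one by one among 19937 genes tested. The other 20 symbols stood only on rows shared with further symbols and are given as a group.

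RNA was compared between 3 FLAG-CTCFL cultures and 3 control vector cultures, 1 Affymetrix Mouse Gene 1.0 ST array each, from 200 ng of total RNA. Both groups were male ES cells derived from the line 46C, which carries a Sox1-GFP knock-in on a 129P2/OlaHsd background. Both carried a stably transfected vector and were kept in 10% serum with 1 µg/ml puromycin, and they differed in whether that vector encoded FLAG-CTCFL. The labels call the cultures biological replicates but do not give the number of independent lines behind them, so p-values measure the spread between these cultures. CTCFL is the testis paralog of the genome-organising factor CTCF. Its own gene, Ctcfl, had log2 signals of 11.33, 11.22 and 11.24 in FLAG-CTCFL cells, against 7.70, 7.85 and 7.89 in control vector cells, in keeping with the labels.

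The cytosolic ribosome is built from a large (Rpl) and a small (Rps) subunit, each holding ribosomal RNA and a fixed set of proteins. Cells make these proteins in matched amounts, and their mRNAs are among the most abundant in growing cells. Their mRNAs usually begin with a C followed by an unbroken stretch of pyrimidines, the 5′ terminal oligopyrimidine (TOP) element, through which mTOR signalling controls their translation. Most members have 1 active gene and many processed pseudogenes, while a few have a second functional copy with a narrower pattern of expression, such as Rpl10l and Rpl39l in male germ cells.

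The 30 bases around the start (15 before it, 15 from it on) are shown for named members whose start RefSeq gives once (GRCm38.p6), because the TOP element would lie there. Capitals mark any C followed by at least 4 further C or T on the strand that reads as the mRNA, the only strand searched.
Rpl39l, chr16:10170213-10170242, plus strand: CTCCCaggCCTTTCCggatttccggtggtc
Rpl27, chr11:101442230-101442259, plus strand: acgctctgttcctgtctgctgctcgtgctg
Rpl10l, chr12:66284387-66284416, minus strand: tttggCCTCCattttgcggctggcggtggg
Rps4x, chrX:102189377-102189406, minus strand: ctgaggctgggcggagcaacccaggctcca
Rpl10, chrX:74270801-74270830, plus strand: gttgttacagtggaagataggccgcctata
Rpl32l, chr10:20208424-20208453, plus strand: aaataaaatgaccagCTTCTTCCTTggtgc
Rplp0, chr5:115559452-115559481, plus strand: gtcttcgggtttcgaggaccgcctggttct
Rplp2, chr7:141447636-141447665, plus strand: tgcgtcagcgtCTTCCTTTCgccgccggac
Rpsa, chr9:120127751-120127780, plus strand: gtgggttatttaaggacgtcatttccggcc
Rpl7l1, chr17:46782642-46782671, minus strand: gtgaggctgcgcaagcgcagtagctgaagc
A run held the first base of the annotated transcript in Rplp2, where it began before that base, and in Rpl32l, where it began at it. Over the 49 members with an entry (58 starts), a run lay in the window at 32 starts (55.2%) and held the first transcribed base at 14 (24.1%). Over all 32851 starts of the table the shares were 36.4% and 8.02%. A match is a description of these letters, and an annotated start can differ from the one the cells used.

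The ribosomal protein genes were bright and changed little between FLAG-CTCFL and control vector cells. Their median log2 signal was 12.64, within a range of 7.554 to 14.02, against a median of 8.239 over all genes. Rpl39l, Rpl21 and Rpl27 were higher in FLAG-CTCFL cells, and Rpl10l, Rps4x, Rpl10 and Rpl32l were lower, at a Benjamini-Hochberg adjusted p under 0.05 in limma's moderated test over all genes. These 7 of 61 members (11.5%) stand beside 30.9% of all genes called in the same fit, 12.5% of them higher and 18.4% lower. The brightest 10% of genes by mean signal (1994 genes) held 50 of the members, of which 6 were called, beside 42.3% of these 1994 genes. The sets were not matched in brightness: the 50 members had a median log2 signal of 12.75, against 11.26 for the 1994 genes. The cells were measured in bulk, so fewer cells of a type and less RNA per cell cannot be told apart, and equal amounts of RNA were labelled, so ribosomal protein mRNA per cell was not measured.

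The median log2 fold change of the 61 members was 0.0233 (FLAG-CTCFL minus control vector), beside 0.0037 over all genes and -0.0284 in the brightest 10%. The quartiles of the members were -0.019 and 0.064, and the whole range ran from -0.41 to 0.54. The median absolute change was 0.046 on the log2 scale, against 0.073 over all genes and 0.12 in the brightest 10%. The spread within groups was not smaller for the members: their median within-group SD was 0.070, the same as the 0.070 of the brightest 10% and above the 0.058 of all genes. Of the 54 members that did not pass the threshold, 52 had a 95% confidence interval of the difference that lay wholly within a 1.2-fold change either way. For the brightest rows of these genes the arrays thus bound the difference in deposited signal. A p that misses the threshold alone would not. The bound holds for the deposited scaling, and how fully each row responds to its mRNA was not tested. The dimmest member, Rpl3l at 7.554, lay below the median of 8.239 over all genes. Other rows of the same gene can lie outside that bound: a dimmer row of Rpl24, described below, was at 0.42.

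**Figure D1:**
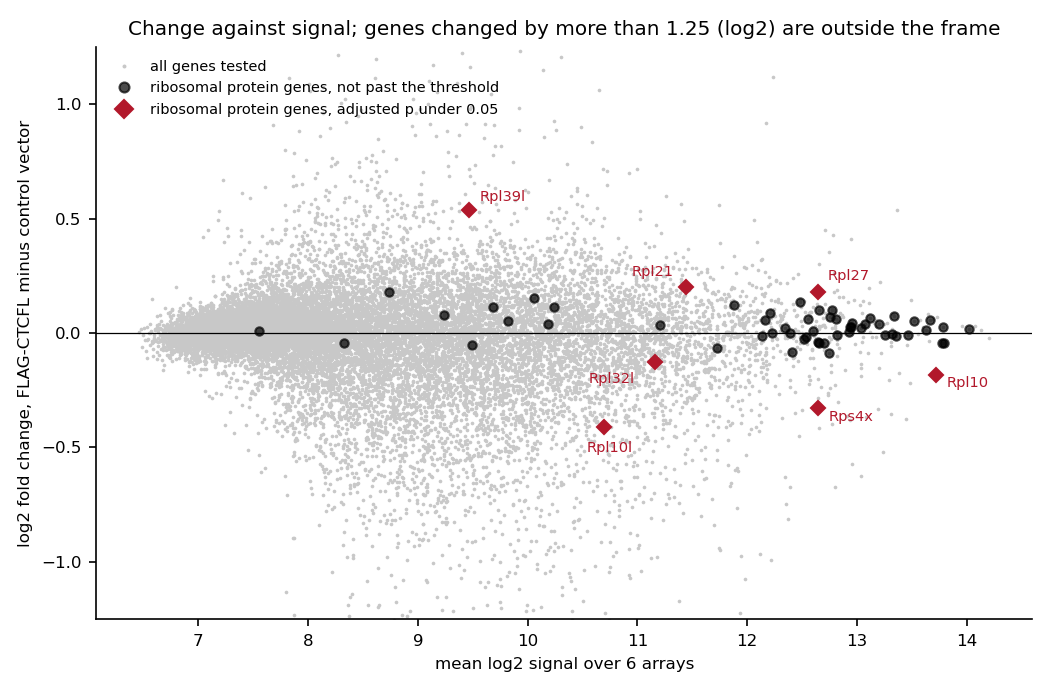
Log2 fold change (vertical axis, FLAG-CTCFL minus control vector) against mean log2 signal over 6 arrays (horizontal axis) for all genes tested (grey) and the 61 ribosomal protein genes (black; red diamonds where the adjusted p was under 0.05). Most members sit at the bright end and close to 0, with Rpl39l at 0.54 and Rpl10l at -0.41 as the extremes.

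Both subunits held few called genes. Of 38 large subunit genes, 3 were higher and 3 lower, with a median log2 fold change of 0.026. Of 23 small subunit genes none was higher and Rps4x was lower, with a median of 0.0069. On the brightest rows, which stand for the genes here, no member of the small subunit other than Rps4x differed by more than 0.123 on the log2 scale.

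**Figure D2:**
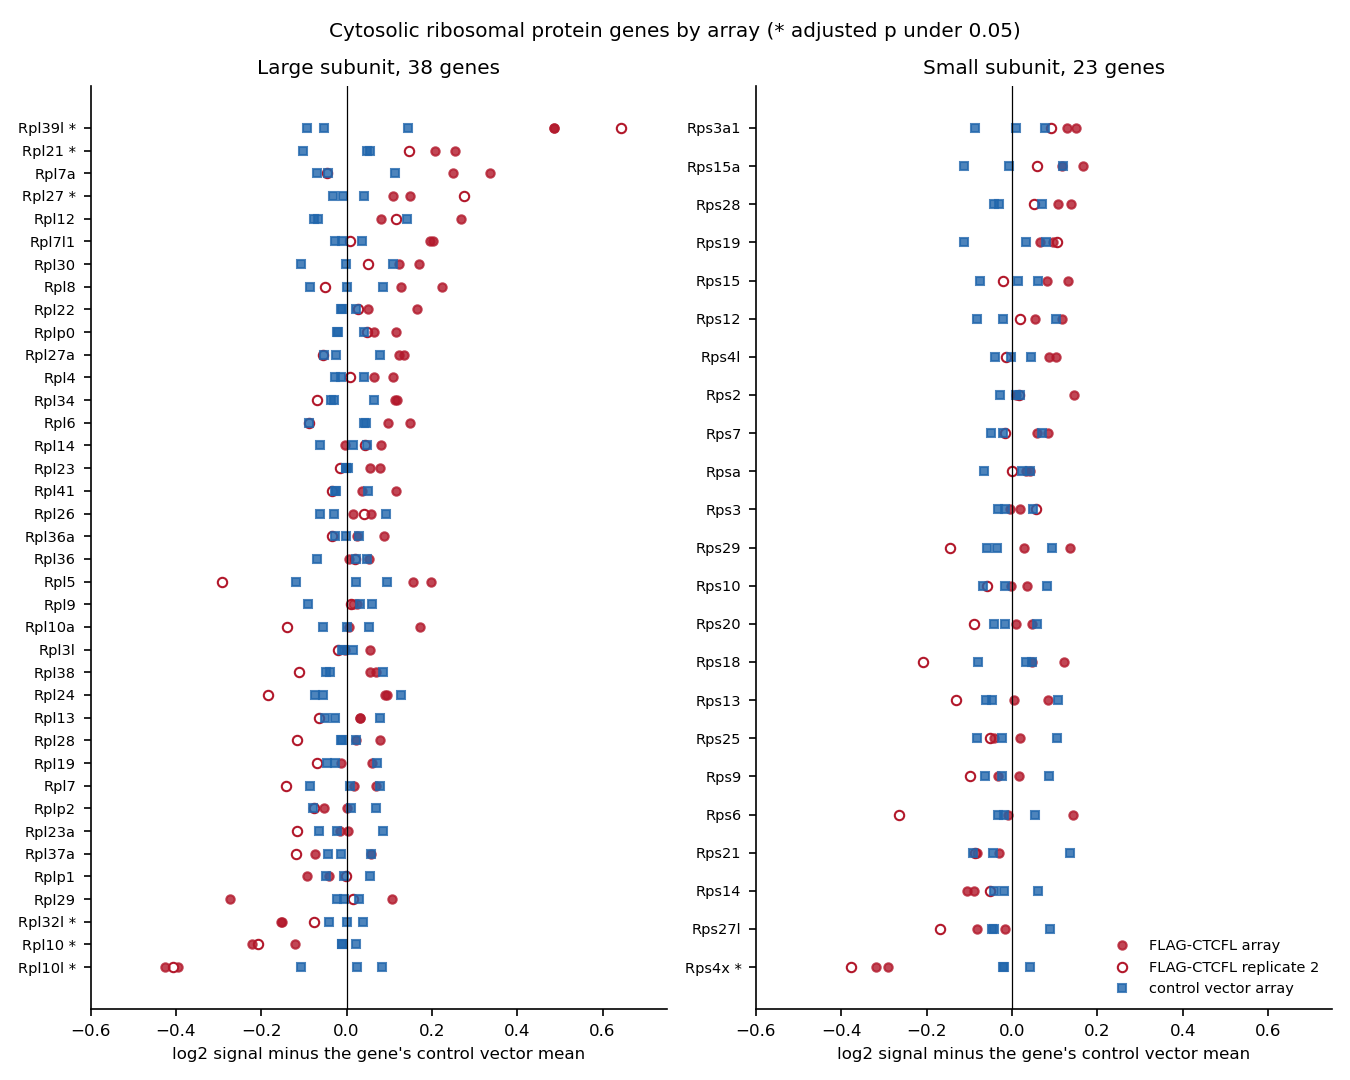
Log2 signal of each array minus the gene's control vector mean (horizontal axis) for 38 large and 23 small subunit genes, ordered by fold change, with FLAG-CTCFL arrays as red circles (replicate 2 open) and control vector arrays as blue squares. For most genes the groups overlap, and the open circle is often the leftmost of its group.

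Single arrays were set apart by a shift that most members shared. The median member lay 0.0791, -0.0464 and 0.0353 above the control mean in FLAG-CTCFL replicates 1 to 3, against 0.0606, -0.0243 and -0.0326 in control vector replicates 1 to 3. FLAG-CTCFL replicate 2 was the lowest of its group for 46 of 61 members, and control vector replicate 1 was the highest of its group for 52. Of the 1994 brightest genes, FLAG-CTCFL replicate 2 was the lowest of its group for 1622, with a median of -0.109 from the control mean. The low values of that array were thus shared by bright genes in general. Control vector replicate 1 was the highest of its group for 641 of these 1994 genes, with a median of -0.0041. The groups' arrays did not overlap for 11 of 61 members, of which 6 were higher and 5 lower, against 41.3% of all genes. Without FLAG-CTCFL replicate 2, 7 members were higher and 4 lower, beside 2818 and 3611 of all 19937 genes (32.2% called). Without control vector replicate 1, the counts were 6 higher and 3 lower, beside 2041 and 3149 of all genes. Quantile normalization of the deposited values turned the split to 14 higher and 3 lower (19.8% and 16.6% over all genes), the 11 further rises including Rplp0, Rpl7l1 and Rps4l. Subtracting the array medians instead gave 3 higher and 3 lower members, beside 2690 and 3134 of all genes. The split of calls among the members therefore depended on the scaling chosen, and no direction of the family as a whole is given. None of the 7 called members turned its direction under either scaling alternative.

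Rpl39l, a copy of the exit tunnel protein gene Rpl39 that is known for its expression in male germ cells, showed the largest change of any member. Its log2 signals were 9.68, 9.84 and 9.68 in FLAG-CTCFL cells, against 9.34, 9.14 and 9.10 in control vector cells. Each FLAG-CTCFL culture lay above each control vector culture, and the log2 fold change was 0.54 ± 0.065 (SE, n = 3 each), a 1.45-fold difference (limma, adjusted p = 2.44e-05). It was among the dimmer members, and kept its call in each of the 20 alternative settings. Its 10 nearest measured genes on chromosome 16, 5 on each side, held 2 higher and 2 lower genes with a median log2 fold change of 0.0075. Rpl39 itself stood only on a row with a second symbol and gets no value of its own.

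Rpl10l, an intronless copy of Rpl10 that is needed in male meiosis, when the X chromosome is silent, was lower. The signals were 10.50, 10.49 and 10.47 in FLAG-CTCFL cells, against 10.98, 10.92 and 10.79 in control vector cells. The groups stood apart, with a log2 fold change of -0.41 ± 0.051 (SE, n = 3 each; limma, adjusted p = 3.74e-05). Its neighbours on chromosome 12 held 2 higher and 0 lower genes, with a median of 0.0075. Its X-linked parent Rpl10, whose protein joins the large subunit late in its assembly, was lower too, at 13.69, 13.61 and 13.59 in FLAG-CTCFL cells, against 13.84, 13.80 and 13.80 in control vector cells. That difference was smaller, at -0.18 ± 0.044 (limma, adjusted p = 0.00609). Whether probes of the copy also read the mRNA of the parent was not tested. Of these germ cell copies, then, Rpl39l was higher and Rpl10l lower.

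Rps4x, the X-linked gene of a small subunit protein, had signals of 12.52, 12.43 and 12.49 in FLAG-CTCFL cells, against 12.79, 12.85 and 12.79 in control vector cells. The groups did not overlap, and the log2 fold change was -0.33 ± 0.044 (SE, n = 3 each; limma, adjusted p = 6.79e-05). Its autosomal copy Rps4l had 12.23, 12.11 and 12.22 in FLAG-CTCFL cells, against 12.13, 12.17 and 12.09 in control vector cells. These overlapped, with a log2 fold change of 0.058 and a 95% interval of -0.044 to 0.16 (limma, adjusted p = 0.427).

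**Figure D3:**
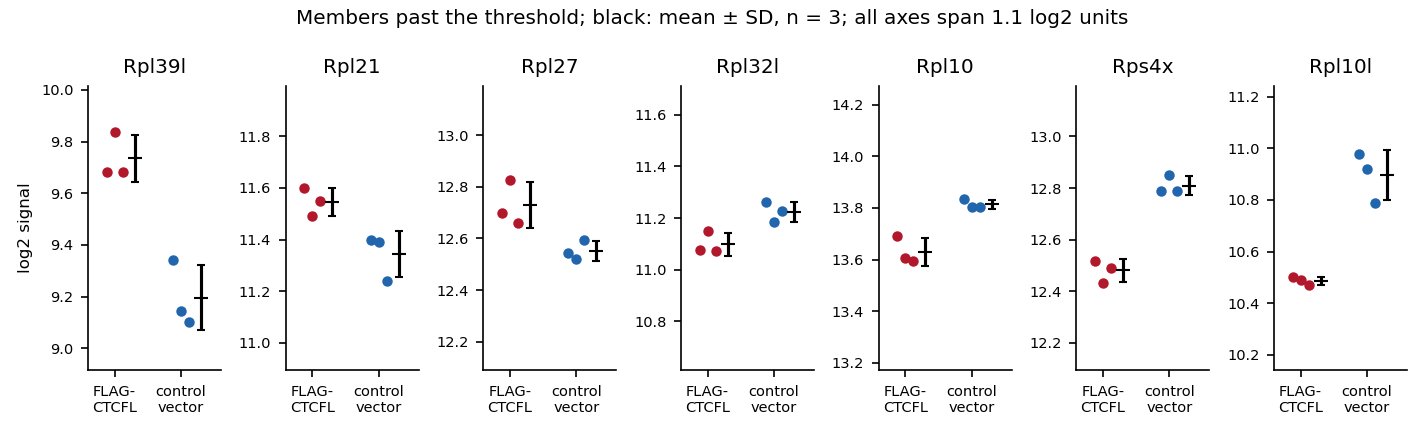
Log2 signal of the 7 members past the threshold in FLAG-CTCFL (red, left) and control vector (blue, right) arrays, with the mean ± SD (n = 3) in black. Every axis spans the same 1.1 log2 units, and in each panel the arrays of the groups do not overlap.

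The remaining called members changed by less. Rpl21, a large subunit protein gene, had 11.60, 11.49 and 11.55 in FLAG-CTCFL cells, against 11.40, 11.39 and 11.24 in control vector cells, a log2 fold change of 0.20 ± 0.052 (limma, adjusted p = 0.00913). Rpl27, also of the large subunit, had 12.70, 12.83 and 12.66 in FLAG-CTCFL cells, against 12.54, 12.52 and 12.59 in control vector cells, a change of 0.18 ± 0.051 (limma, adjusted p = 0.0161). Both stood apart from the control arrays, though Rpl21 lost its call without control vector replicate 3 (adjusted p = 0.0574) and Rpl27 without control vector replicate 1 (adjusted p = 0.0547) or 2 (adjusted p = 0.0757). When the rows of each gene were averaged, Rpl21 was at 0.105 (limma, adjusted p = 0.277) and Rpl27 did not pass either (limma, adjusted p = 0.0691). Rpl32l, a locus named after Rpl32, had 11.07, 11.15 and 11.07 in FLAG-CTCFL cells, against 11.26, 11.18 and 11.23 in control vector cells, a change of -0.13 ± 0.044 (limma, adjusted p = 0.0464). It was past the threshold by little and lost its call in 13 of 20 settings, among them the omission of any control vector culture or of FLAG-CTCFL replicate 1 or 3.

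The genes around these members differed from case to case. Of the 10 nearest measured genes of Rpl21 on chromosome 5, 6 were higher and 1 lower, with a median log2 fold change of 0.146. By the check of rows described below, none of the 9 rows of Rpl21 lay at its own locus. These neighbours are thus those of the gene, and not of the row that gave its value. Those of Rpl27 and of Rpl32l held 1 higher and 1 lower gene each, with medians of 0.021 and 0.025. The part of the neighbourhood in the rise of Rpl21 was not tested.

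The other paralog pairs did not pass the threshold. Rpl7l1, which is related to Rpl7 and acts in the assembly of the large subunit, had 12.61, 12.42 and 12.62 in FLAG-CTCFL cells, against 12.45, 12.40 and 12.39 in control vector cells (log2 fold change 0.14, 95% interval 0.016 to 0.25; limma, adjusted p = 0.0843). Only FLAG-CTCFL replicate 2 lay within the control range, and without it the change was 0.20 (limma, adjusted p = 0.00282). Rpl7 had 12.61, 12.40 and 12.56 in FLAG-CTCFL cells, against 12.62, 12.55 and 12.46 in control vector cells, with overlapping groups (log2 fold change -0.019, 95% interval -0.15 to 0.11; limma, adjusted p = 0.871). Rps27l, a copy of Rps27 known as a target of p53, had 12.71, 12.62 and 12.77 in FLAG-CTCFL cells, against 12.88, 12.74 and 12.75 in control vector cells (-0.089, 95% interval -0.20 to 0.026; limma, adjusted p = 0.256). Rpl3l, the copy of Rpl3 known from striated muscle, was the dimmest member, at 7.54, 7.53 and 7.60 in FLAG-CTCFL cells and 7.54, 7.57 and 7.54 in control vector cells (0.010; limma, adjusted p = 0.905).

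The P-stalk, the arm of the large subunit that recruits translation factors, is made of Rplp0, Rplp1 and Rplp2. Rplp0 had 13.41, 13.35 and 13.36 in FLAG-CTCFL cells, against 13.34, 13.28 and 13.28 in control vector cells. Its groups did not overlap, but the log2 fold change was only 0.076, with a 95% interval of -0.018 to 0.17 (limma, adjusted p = 0.232). Rplp1, at 13.78, 13.81 and 13.72 in FLAG-CTCFL cells and 13.87, 13.77 and 13.81 in control vector cells, overlapped between groups, with a change of -0.045 (limma, adjusted p = 0.542). Rplp2, at 8.29, 8.27 and 8.35 in FLAG-CTCFL cells and 8.41, 8.36 and 8.27 in control vector cells, also overlapped, with a change of -0.043 (limma, adjusted p = 0.592). Rpsa, the small subunit protein also known as the laminin receptor, had 12.97, 12.93 and 12.96 in FLAG-CTCFL cells, against 12.95, 12.97 and 12.86 in control vector cells, with a change of 0.025 (limma, adjusted p = 0.757).

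The X-linked members were set beside the 5 measured genes on either side of each. Rpl10 lay among genes that fell: 7 of its 10 neighbours were lower and 0 higher, with a median log2 fold change of -0.53. They included the nuclear envelope protein gene Emd at -0.60, the actin cross-linker gene Flna at -0.60, the proton pump subunit gene Atp6ap1 at -0.88 and Snora70, a small nucleolar RNA made from an intron of Rpl10, at -0.47. Around Rps4x, 5 of 10 neighbours were lower and 1 higher, and the median log2 fold change was -0.19. The brightest Rps4x row, which stands for the gene here, did not lie at its own locus. The row that did was at -0.42. Hdac8, a histone deacetylase gene, was at -0.56, while Cited1, the gene next to Rps4x, was at 0.90. Rpl36a had 5 lower neighbours and 1 higher neighbour (median -0.095), yet its own signals overlapped at 13.02, 12.90 and 12.96 in FLAG-CTCFL cells, against 12.97, 12.93 and 12.91 in control vector cells (log2 fold change 0.026; limma, adjusted p = 0.756). Over the whole X chromosome, 76 of 739 genes were higher and 230 lower (41.4% called). Over all genes, 12.5% were higher and 18.4% lower (30.9% called). More falls than rises were also found on chromosome 14, with 44 of 699 genes higher and 260 lower (43.5% called). On chromosome 6, 108 of 1099 genes were higher and 241 lower (31.8% called). Rpl36a and the neighbours named were singled out after their values were seen, and the part of the chromosome in the falls of Rpl10 and Rps4x was not tested.

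**Figure D4:**
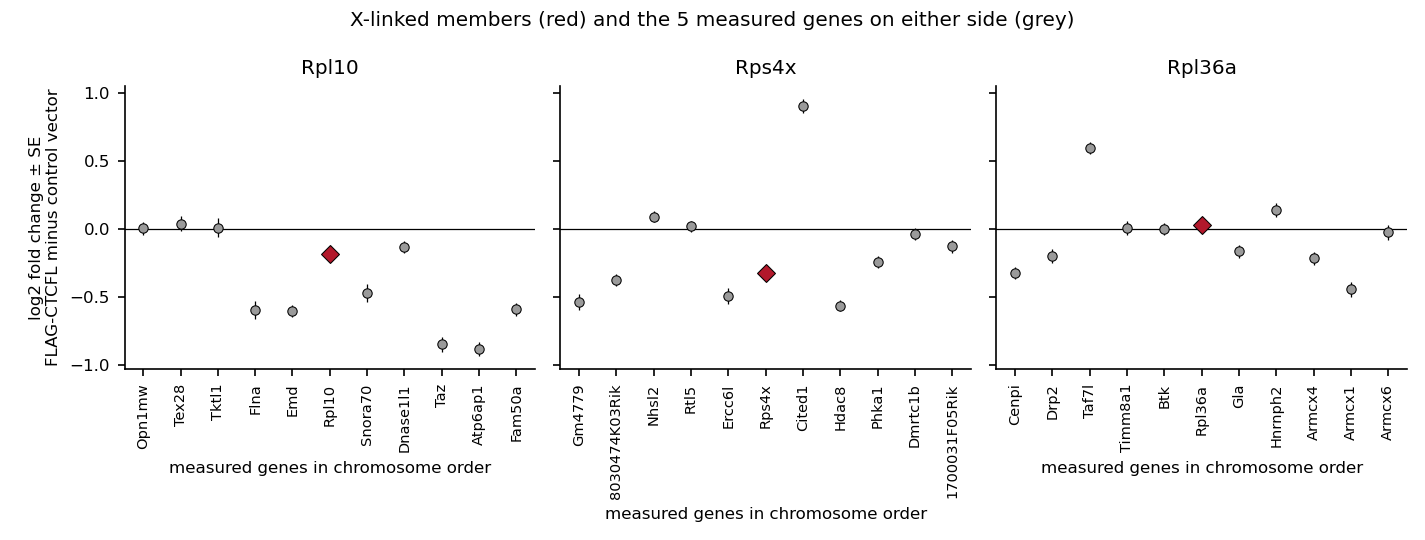
Log2 fold change ± SE (vertical axis, FLAG-CTCFL minus control vector) of Rpl10, Rps4x and Rpl36a (red diamonds) and of the 5 measured genes on either side of each, in chromosome order (grey). Rpl10 changed less than Flna, Emd and Atp6ap1. Rpl36a lay near 0, as did Btk and Timm8a1 on one side of it, with Gla on the other side at -0.16. The diamond of Rps4x is its brightest row, which did not lie at the gene's own locus.

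Many members have several array rows, since copies of their sequence lie across the genome. The 61 genes had 193 rows with no other symbol, and 38 genes had more than 1. Taken row by row in a fit over all rows, 5 were higher and 6 lower, or 5.7% against 18.1% of all rows. The 5 higher rows were of Rpl39l, Rpl21, Rpl24, Rps2 and Rps6, those of the last 3 not the brightest of their genes, and 0 genes had rows called in opposite directions. Row numbers follow the genome for most genes, so a row can be checked against the genes named on the rows around it. By this check, the brightest row lay at the gene's own locus for 29 members and elsewhere for 32, and 52 members had some row at their own locus.

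The falls of Rps4x and Rpl10 were also seen on other rows of these genes, though not on all. Whether the rows of a gene read the same transcripts was not tested. The row of Rps4x at its own locus had 12.13, 11.97 and 12.15 in FLAG-CTCFL cells, against 12.55, 12.52 and 12.44 in control vector cells, a change of -0.42. Of the 4 rows of Rps4x, 2 passed the threshold in the fit over all rows, both lower, and the others were at -0.39 (limma, adjusted p = 0.0524) and -0.055 (limma, adjusted p = 0.781). Of the 5 rows of Rpl10, 3 passed the threshold, all lower, at -0.18, -0.17 and -0.50. The dimmest row of Rpl10 was at 0.072 and did not pass.

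With the row at its own locus in place of the brightest, 4 of 52 members were higher and 4 lower, beside 30.9% of all genes called in that fit. Rpl24, a large subunit protein gene, then had 10.10, 10.15 and 10.30 in FLAG-CTCFL cells, against 9.76, 9.79 and 9.75 in control vector cells, a change of 0.42 (limma, adjusted p = 3.64e-05). Its brightest row had 12.48, 12.21 and 12.49 in FLAG-CTCFL cells, against 12.52, 12.32 and 12.34 in control vector cells, a change of -0.00024. Rps2, of the small subunit, had 12.65, 12.62 and 12.64 in FLAG-CTCFL cells, against 12.52, 12.43 and 12.53 in control vector cells at its own locus, a change of 0.15 (limma, adjusted p = 0.0221). In the fit over all rows this row of Rps2 did not pass (limma, adjusted p = 0.0575). The Rps2 row called there was a dimmer one, away from the locus, at 0.22. The rows of 1 gene thus gave different answers for Rpl24, and which of them reads the intact mRNA was not tested. Rpl24 and Rps2 were singled out after their values were seen.

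**Figure D5:**
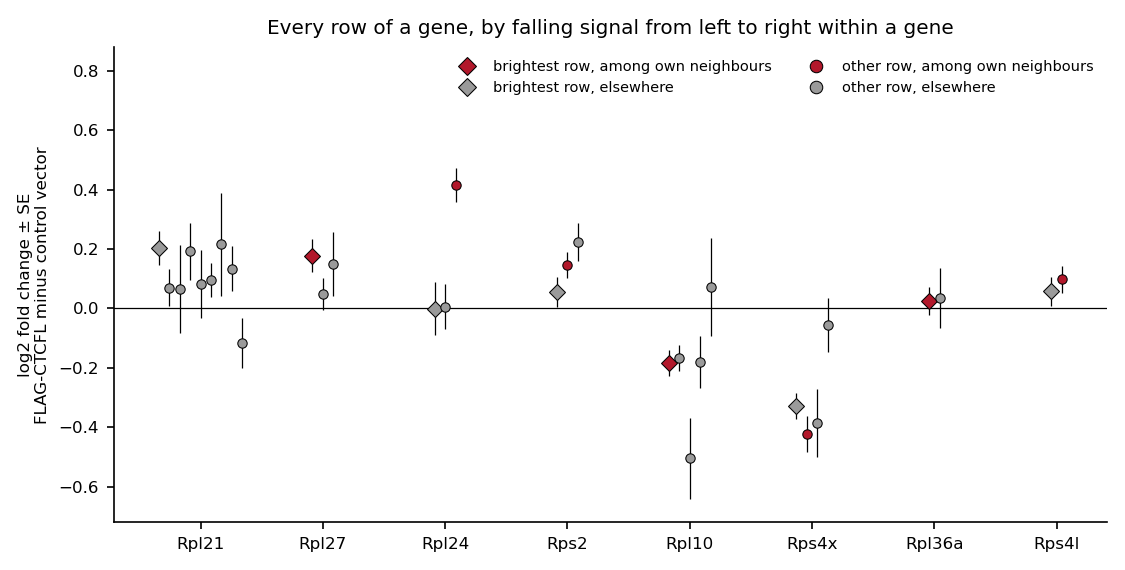
Log2 fold change ± SE (vertical axis, FLAG-CTCFL minus control vector) of every row of 8 ribosomal protein genes, brightest row first within each gene (diamonds). Red marks rows that lie among the gene's own neighbours, that is, at its own locus. The rows of Rps4x and Rpl10 lie mostly below 0, and the locus row of Rpl24 lies at 0.42 while its other rows lie close to 0.

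The 20 symbols found only on shared rows lay on 18 different rows. In a fit over all rows 1 of these, shared by Rpl13a and Zfp526, was higher and 0 were lower, with a range of -0.23 to 0.23 and a median of 0.030. Fau, whose product is cleaved into a ubiquitin-like protein and a small subunit protein, had 13.02, 12.96 and 12.97 in FLAG-CTCFL cells, against 13.09, 13.05 and 13.05 in control vector cells (log2 fold change -0.082; limma, adjusted p = 0.183).

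Genes that work with the ribosome were described by lists. Of 15 measured genes of a list of other mRNAs known for TOP elements, mostly of translation factors, 2 were higher and 2 lower (26.7%, against 30.9% of all genes), with a median log2 fold change of 0.015. Without any one of control vector replicates 1, 2 and 3 or FLAG-CTCFL replicate 1, only 1 was higher. The elongation factor subunit gene Eef1d was at 0.29 and the histone chaperone gene Nap1l1 at 0.14, while the initiation factor gene Eif4b was at -0.24 and the tumour protein gene Tpt1 at -0.21. Of 65 ribosome biogenesis factor genes, 9 were higher and 10 lower (29.2%, against 30.9% of all genes), with a median of 0.0007. After quantile normalization 23 were higher and 8 lower, beside 19.8% and 16.6% of all genes. Leaving out 1 culture also moved these counts: 15 were higher without FLAG-CTCFL replicate 2, 18 were lower without FLAG-CTCFL replicate 1, and 6 were lower without control vector replicate 2. Dkc1, the X-linked pseudouridine synthase gene, changed most, at 11.25, 11.14 and 11.13 in FLAG-CTCFL cells, against 11.83, 11.84 and 11.86 in control vector cells, a log2 fold change of -0.67. The GTPase gene Bms1 at -0.36 and the rRNA methyltransferase gene Nop2 at -0.30 were lower as well, while the helicase gene Dhx37 at 0.28 was higher.

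RNA polymerase I makes the precursor of the large ribosomal RNAs. Of 15 genes of this enzyme and its initiation and termination factors, 6 were higher and 1 lower (46.7% called, against 30.9% of all genes). The median log2 fold change of the 15 was 0.031. Without control vector replicate 3, 4 were higher and 0 lower, without FLAG-CTCFL replicate 3, 4 were higher, and without FLAG-CTCFL replicate 1, 2 were lower. Taf1d, a subunit of the selectivity factor SL1, had 13.07, 12.81 and 12.93 in FLAG-CTCFL cells, against 12.58, 12.41 and 12.48 in control vector cells, a log2 fold change of 0.45. The SL1 subunit genes Taf1a and Taf1c were higher by 0.22 and 0.25 and the polymerase subunit gene Polr1e by 0.22. Taf1b, also of SL1, was at -0.11 and did not pass (limma, adjusted p = 0.115). The 1 lower gene was the polymerase subunit gene Polr1b at -0.23. Taf1b and Polr1b were named after their values were seen.

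Among 16 regulators of ribosomal protein synthesis, 2 were higher and 1 lower (18.8%, against 30.9% of all genes). After quantile normalization 8 were higher, beside 19.8% of all genes. The mTORC1 component genes Akt1s1 and Rptor were at 0.31 and 0.19, and the transcription factor gene Mycn was at -0.22. Of 5 snoRNA host genes with a row, Snhg11 was the 1 called, higher at 0.48, and 2 were higher without control vector replicate 1 or without FLAG-CTCFL replicate 2, while 1 was lower without FLAG-CTCFL replicate 1.

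The 77 mitochondrial ribosomal protein genes, which serve a separate ribosome, gave 25 higher and 7 lower genes (41.6%, against 30.9% of all genes) with a median log2 fold change of 0.087, beside 7 of 61 cytosolic members and a median of 0.0233. The difference between these families was not tested. Defining ES cell genes were bright, with a median log2 signal of 12.5 in FLAG-CTCFL and 12.7 in control vector cells, and 3 of 6 (Nanog, Dppa5a and Sox2) were lower. Marker lists for fibroblasts, endoderm, trophoblast, neural cells and mesoderm had medians of 7.74 to 8.36 in FLAG-CTCFL and 7.67 to 8.55 in control vector cells, beside a median of 8.239 over all genes. Of these markers, 1 of 6 fibroblast, 1 of 6 endoderm, 2 of 6 trophoblast, 1 of 5 neural and 3 of 5 mesoderm genes were higher, and 1 neural gene was lower, against 12.5% higher and 18.4% lower over all genes. Their part in the values of the ribosomal protein genes was not tested.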

How the data were processed

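The authors deposited 1 table with a log2 signal per probe set (row) and array, read as log2 from its range. Array medians lay between 7.92 and 7.99. How probe signals were corrected, normalized and combined, and with which program, is not given in the sources used here. Labelling and hybridisation followed the manufacturer's protocol, per the labels' protocols. Of 34760 rows, 21640 had 1 gene symbol in the platform annotation, 1321 several and 11799 none. Symbols were updated through RefSeq's GRCm38.p6 gene table by Entrez ID (21553 matched, 87 kept the old symbol). The brightest of a gene's 1-symbol rows stood for it.

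The test was limma's moderated one (version 3.58.1, under R 4.3.3; lmFit and eBayes, two-sided, no block, Benjamini-Hochberg over 19937 genes, threshold 0.05). Tested on simulated data for this comparison, in which 200 of 19937 genes were changed, the fit found 8% of true log2 differences of 0.125. It found 88% of those of 0.25 and 100% of those of 0.5, with 9.76% of its calls false. On the real arrays 30.9% of all genes were called, and whether these rates hold at that share was not tested. The number of arrays limits the precision. The labels state no pairing by replicate number. Deviations from the group means correlated at 0.134, -0.204 and -0.0208 for same-numbered arrays, and at -0.349 to 0.339 for differently numbered ones. These values cannot show whether the cultures were paired.

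Members and lists were chosen with earlier results of these data known. By rule, called members, the P-stalk genes, Rpsa, paralog pairs and, per list, up to 4 called genes with the smallest p were named. A row counted as at its gene's own locus when at least 6 of the 10 nearest named rows were of genes on that chromosome within a median distance under 5 Mb, which held for 99.0% of 18882 genes with 1 row. Alternatives were other scalings, filters, row choices, variance models, a replicate block and each culture left out.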

Additional observations from a re-analysis of the deposited data

How the results depend on the processing

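In 20 alternative settings the count of higher members (3) ranged from 1 to 15, that of lower members (4) from 1 to 5, and the median log2 fold change (0.0233) from 0.00697 to 0.0669, less than the SD of the array medians (0.0577) away. No direction of a called member turned. Higher members numbered 14 after quantile normalization, 15 with array weights, 1 when a 1.2-fold change was required and 1 without a variance shared across genes, where Rpl39l was left. Lower members numbered 2 at 1.2-fold, 1 without shared variance and 2 without chromosomes 6, 14 and X, where Rps4x and Rpl10 were not tested. Leaving out each culture in turn gave 2 to 7 higher and 3 to 4 lower members and medians of 0.00697 to 0.0669. With a replicate block, 4 were higher and 3 lower with the same median of 0.0233, Rpl7a being gained and Rpl32l lost. The row at the own locus, a setting chosen after seeing the data, gave 4 and 4 of 52. Rpl39l kept its call in all 20 settings, Rpl10l in 19, Rpl10 in 17 of 19, Rpl21 in 15 of 19, Rpl27 in 14 of 20 and Rpl32l in 7 of 20. Over all genes, 2496 higher and 3665 lower in the reported fit became 3943 and 3306 after quantile normalization, 4195 and 5009 with array weights, 987 and 2049 at 1.2-fold, and 712 and 1467 without shared variance. The cause of these changes was not tested.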
